A study of Mus musculus with 8 samples.

Results

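The miR-29 family is a group of mouse microRNAs (miRNAs) made from 4 genes, Mir29a, Mir29b-1, Mir29b-2 and Mir29c. The genes were chosen by name and found by matching their RefSeq positions to the mm10 coordinates of the count tables, and all 4 of 4 were present among the 2202 miRNA features. Each had at least 2 counts in every library, and all 4 were among the 219 features with enough counts to be tested. Small RNA was sequenced from spleen B cells of Ago2HA/HA mice, in which both copies of the gene for AGO2, the Argonaute protein that carries miRNAs to their targets, encode an HA epitope. The 8 libraries form 4 groups of 2: the anti-HA immunoprecipitate (IP) of proliferating cells, the IP of resting cells, the input RNA of proliferating cells and the input RNA of resting cells. Resting cells came from negative selection against CD43, and proliferating cells were the same kind of cell after activation in culture. All 4 groups carry the tagged allele, and according to the labels the IP of cells lacking the epitope yielded no RNA and was not sequenced. The labels used here name no activating agent, time in culture, strain or age of the mice. They also leave unstated whether the libraries of a group are of different mice, so the spread behind the p-values is that of these samples and may be technical.

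miR-29 miRNAs are known to repress collagen and other matrix genes, the DNA methyltransferases Dnmt3a and Dnmt3b, and the survival factor Mcl1. Mice that overexpress miR-29 in B cells develop a disease like chronic lymphocytic leukaemia. The family is abundant in many resting and differentiated cell types. Each hairpin can yield a miRNA from both of its arms, and the 3p arm is the one that carries the shared targeting sequence.

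The mature 3p miRNAs, as RefSeq gives them for GRCm38.p6, are shown first because the family is defined by them. Capitals mark the seed, bases 2 to 8 from the 5′ end, which pairs with targets.
miR-29a-3p: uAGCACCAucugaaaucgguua
miR-29b-3p: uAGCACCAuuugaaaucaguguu
miR-29c-3p: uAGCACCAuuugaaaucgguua
All carry the seed agcacca, and no other of the 1679 mature miRNA names in the RefSeq table has it. Counted from 1 at the 5′ end, miR-29a-3p and miR-29c-3p differ by the single substitution C10U over 22 bases. miR-29b-3p differs from miR-29c-3p by G18A, U21G and A22U and has 1 more base. The 3′ end of miR-29b-3p, bases 18 to 23, is AGUGUU, an element known from human HeLa cells to direct miR-29b to the nucleus. The letters AGUGUU, searched on the mature strand alone, occur in 12 of the 1679 mature names (0.715%), and within the family in miR-29b-3p alone.

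The genes lie in pairs. Mir29a (ENSMUSG00000065610.1) spans chromosome 6, 31062660 to 31062747, on the minus strand, and Mir29b-1 (ENSMUSG00000065604.2) spans 31063023 to 31063093 on the same strand, 275 nt away. No RefSeq gene overlaps this pair and no other RefSeq gene lies within 20 kb. Mir29b-2 (ENSMUSG00000065412.3) spans chromosome 1, 195037040 to 195037120, on the plus strand, and Mir29c (ENSMUSG00000065548.1) spans 195037547 to 195037634, 426 nt further on. This pair lies within the span of the RefSeq gene A330023F24Rik, and Cd46 is the other gene within 20 kb. None of the 4 features overlaps another counted feature on either strand.

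The hairpins of the miR-29b genes are shown because their counts cannot be read as the level of miR-29b. Capitals mark miR-29b-3p, which is the same 23 bases in both.
Mir29b-1: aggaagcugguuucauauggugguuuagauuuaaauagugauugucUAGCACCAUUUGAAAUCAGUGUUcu
Mir29b-2: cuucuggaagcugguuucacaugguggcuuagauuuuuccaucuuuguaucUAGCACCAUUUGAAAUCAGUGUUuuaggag
A read of miR-29b-3p therefore fits both genes, while the 5p arms differ. How such reads were counted is not given in the sources used here. Over all 8 libraries Mir29b-1 had 137 counts and Mir29b-2 had 95, against 148249 for Mir29a and 26884 for Mir29c. The mature arms of Mir29a and Mir29c lie in 1 hairpin gene each.

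Library totals lay between 788869 and 1681148 counts in the IPs and between 213418 and 386598 counts in the inputs. All 4 lymphocyte marker features (Mir150, Mir155, Mir181a-1, Mir342) were counted in every group. They summed to 19.4% to 19.8% of a library in the proliferating IPs and 22.8% to 26.7% in the resting IPs. In the inputs the sum was 23.3% to 24.1% in proliferating cells and 36.8% to 38.2% in resting cells. It was thus highest in the resting inputs and lowest in the proliferating IPs, as were Mir29a and Mir29c below. Of 22 markers of other lineages 21 were matched to a feature, all but Mir451a, and 11 or 12 of them had a count in a group. Their summed share ranged from 0.200% to 0.330% in the proliferating IPs, 1.69% to 3.18% in the resting IPs, 0.354% to 0.506% in the proliferating inputs and 1.31% to 3.02% in the resting inputs. The myeloid Mir223 had 0.0695% to 0.106% in the proliferating IPs, 1.45% to 2.94% in the resting IPs, 0.221% to 0.339% in the proliferating inputs and 1.15% to 2.86% in the resting inputs. The stromal Mir214 and Mir199a-2 and the neural Mir9-1, Mir124a-1, Mir124a-2 and Mir124a-3 were at 0 in all groups. The summed share of other lineages, mostly Mir223 in the resting groups, was higher in resting than in proliferating cells. The same held for Mir223 itself, as for Mir29a and Mir29c below. The endothelial Mir126a went the other way, with 0.0889% to 0.176% in the proliferating IPs, 0.00613% to 0.0147% in the resting IPs, 0.0626% to 0.0820% in the proliferating inputs and 0.0173% to 0.0253% in the resting inputs. The hepatocyte Mir122 was also higher in the proliferating inputs, at 0.00609% to 0.00796%, than in the resting inputs, at 0.000836% to 0.00103%. In the IPs Mir122 was instead lower in proliferating cells, at 0.000509% to 0.00126%, than in resting cells, at 0.0028% to 0.00355%. The part of these markers in the miR-29 differences was not tested.

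Mir29a gave most of the family's counts in every library. Its share of all counts was 0.921% and 0.982% in the proliferating IPs, 3.005% and 1.51% in the resting IPs. It was 1.98% and 2.10% in the proliferating inputs. The resting inputs had 7.95% and 6.87%. The resting inputs stood above all other libraries and the proliferating IPs below all others, with no overlap between any of the 4 groups except that the resting IPs spanned the proliferating inputs. Among all features Mir29a had ranks 2 and 3 in the resting inputs, at 28512 and 26540 counts, and ranks between 10 and 15 in the other 6 libraries. The resting IPs were far apart for this gene. Replicate 1 had 50516 counts and replicate 2 had 11885, and the exact 95% intervals of their shares, 2.98% to 3.03% and 1.48% to 1.53%, cover counting error only.

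Mir29c followed the same order of groups at a lower level. It held 0.115% and 0.101% of the counts in the proliferating IPs, 0.442% and 0.277% in the resting IPs. The proliferating inputs had 0.307% and 0.301%, and the resting inputs 1.95% and 1.68%. Again only the resting IPs and the proliferating inputs overlapped. Across the 8 libraries log2 scaled counts (CPM, defined with the tests below) of Mir29a and Mir29c correlated with r = 0.988, a description of 8 points that fall into 4 groups.

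Mir29b-1 had 21 and 26 counts in the proliferating IPs, 33 and 15 in the resting IPs. In the inputs it had 14 and 7 in proliferating cells and 9 and 12 in resting cells. As shares, these are between 0.00189% and 0.00507% of a library. Mir29b-2 had 2 and 8 counts in the proliferating IPs, 28 and 12 in the resting IPs. In the inputs it had 2 and 6 in proliferating cells and 19 and 18 in resting cells. Its share was lower in both proliferating groups than in the resting group of the same fraction, without overlap. For Mir29b-1 the input shares did not overlap either, but in the other direction. They were 0.00507% and 0.00328% in proliferating and 0.00251% and 0.00310% in resting cells. Its IP shares overlapped. A gap between 2 and 2 libraries with so few counts carries little weight, and the part of all features that show one was not counted. The log2 CPM of Mir29b-2 correlated with Mir29a at r = 0.895 and with Mir29c at r = 0.903 over the 8 libraries, and that of Mir29b-1 with Mir29a at r = -0.0053.

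**Figure D1:**
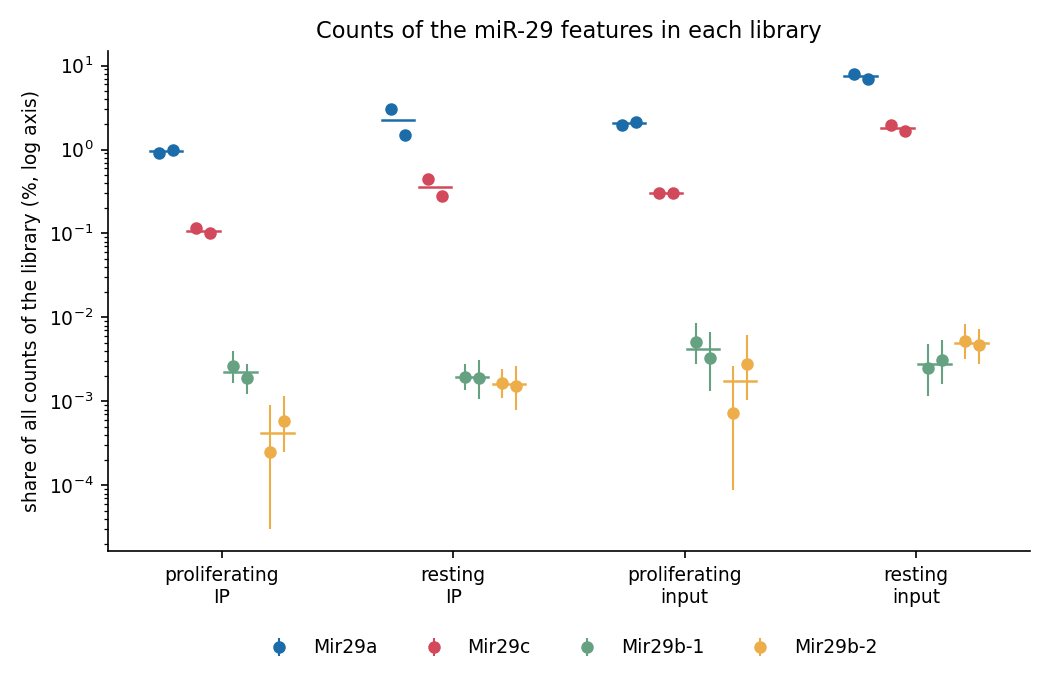
Share of all counts of a library (percent, log axis) of each miR-29 feature, with 1 point per library, exact 95% binomial intervals and a bar at the mean of the 2 libraries. Mir29a and Mir29c are highest in the resting inputs and lowest in the proliferating IPs, and the miR-29b features lie at 0.00507% or less for Mir29b-1 and 0.00530% or less for Mir29b-2.

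Together the 4 features took 1.06% ± 0.0326 of the counts in the proliferating IPs, 2.62% ± 1.18 in the resting IPs, 2.35% ± 0.0787 in the proliferating inputs and 9.23% ± 0.958 in the resting inputs (mean ± SD, n = 2 each). Mir29a made up 89.6% ± 1.29 of this sum in the proliferating IPs, 85.7% ± 1.97 in the resting IPs, 86.8% ± 0.613 in the proliferating inputs and 80.3% ± 0.0437 in the resting inputs. The rest was almost all Mir29c, and the miR-29b features together made up 0.0788% to 0.278% of the sum in single libraries.

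The balance between the genes differed between groups. Because both values come from 1 library, the ratio of Mir29c to Mir29a counts does not depend on how libraries are scaled to each other. It was 0.125 and 0.103 in the proliferating IPs, 0.147 and 0.184 in the resting IPs. In the inputs it was 0.155 and 0.143 in proliferating cells and 0.245 and 0.244 in resting cells. The ratio was lower in proliferating than in resting cells in both fractions, 0.609-fold in the input and 0.689-fold in the IP, and the libraries of the groups did not overlap. It was also lower in the IP than in the input, 0.672-fold in resting and 0.760-fold in proliferating cells, again without overlap. An exact permutation test of 2 against 2 libraries (2-sided) gave p = 0.333 for each, which is the smallest value it can give. The 3p miRNAs of both genes differ at base 10 alone, so a read with an error at that base could be counted for the other gene.

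The ratio of Mir29b-2 to Mir29b-1 counts rests on few counts. It was 0.0952 and 0.308 in the proliferating IPs, 0.848 and 0.800 in the resting IPs. In the inputs it was 0.143 and 0.857 in proliferating cells and 2.11 and 1.50 in resting cells. Mir29b-2 lies beside Mir29c and Mir29b-1 beside Mir29a, so both ratios set a gene of the chromosome 1 pair over a gene of the chromosome 6 pair. Both were lower in proliferating than in resting cells, in the input and in the IP. For miR-29b the pooled counts behind this were 10 for Mir29b-2 and 47 for Mir29b-1 in the proliferating IPs and 40 and 48 in the resting IPs. In the inputs they were 8 and 21 in proliferating cells and 37 and 21 in resting cells. The exact permutation p was 0.333 in both fractions, the smallest possible. Within the chromosome 6 pair, the mean ratio of Mir29b-1 to Mir29a was 0.00206 in proliferating and 0.000384 in resting input. In the IP it was 0.00240 and 0.000958. That of Mir29b-2 to Mir29c was 0.00584 and 0.00275 in the input and 0.00397 and 0.00463 in the IP. Since a miR-29b-3p read fits both miR-29b genes, ratios with a miR-29b feature also depend on how such reads were counted.

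**Figure D2:**
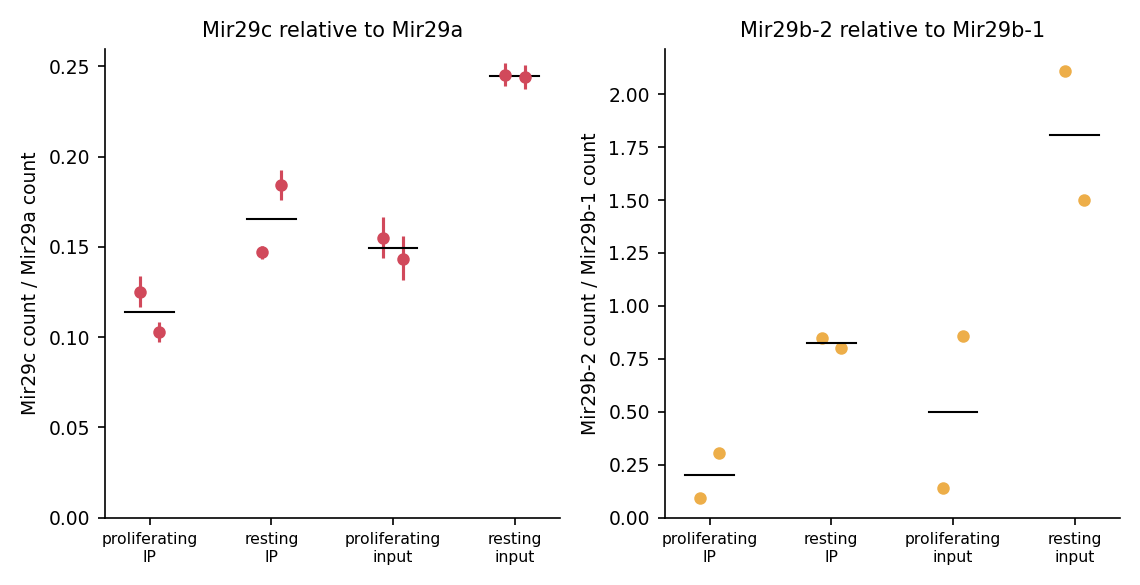
Ratio of Mir29c to Mir29a counts (left, with exact 95% binomial intervals) and of Mir29b-2 to Mir29b-1 counts (right), with 1 point per library and a bar at the mean of the 2 libraries. Both ratios are highest in the resting inputs, at 0.245 and 0.244 on the left and at 2.11 and 1.50 on the right.

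The first comparison asks how the family differed between the cell states in total small RNA. In proliferating input Mir29a and Mir29c were lower than in resting input, and neither miR-29b feature passed the test. Mir29a was at 15462 and 15719 CPM in the proliferating inputs, against 79803 and 65168 CPM in the resting inputs. CPM here are counts scaled to the same library size with TMM factors, which adjust for differences in library composition. The difference was 4.65-fold (log2 fold change -2.22, SE 0.28, edgeR adjusted p = 1.7e-08). Mir29c was at 2396 and 2255 CPM in the proliferating inputs, against 19570 and 15909 CPM in the resting inputs, a difference of 7.63-fold (log2 fold change -2.93, edgeR adjusted p = 1.4e-10, SE 0.30). In both genes the groups were far apart relative to the spread within them. In bulk libraries, fewer cells of a type and less of a miRNA per cell cannot be told apart. Among the 54 features with a mean of at least 1000 CPM, Mir29c had the third lowest and Mir29a the sixth lowest log2 fold change.

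Mir29b-2 had a log2 fold change of -1.90 (95% interval -3.98 to 0.19, edgeR adjusted p = 0.12), so the counts allow a fall as large as that of Mir29c and also no difference. For Mir29b-1 it was 0.24 (95% interval -1.52 to 1.99, edgeR adjusted p = 0.81). In all, 2 of 4 members fell, where 23.3% of the 219 tested features were called lower in proliferating input. With the counts of the 4 features summed, the log2 fold change was -2.35 (SE 0.27, edgeR adjusted p = 3.7e-11). Calls over all features were 57 higher and 51 lower. Library totals gave 75 higher and 37 lower, and upper-quartile factors gave 39 higher and 59 lower.

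The second comparison asks the same of the RNA precipitated with AGO2. Mir29a and Mir29c were lower in the proliferating IP than in the resting IP, and the miR-29b features again did not pass. Mir29a was at 10714 and 11455 CPM in the proliferating IPs, against 37698 and 15907 CPM in the resting IPs (log2 fold change -1.27, edgeR adjusted p = 9.7e-05, SE 0.27). The groups did not overlap, but the size rests on 1 library. Without resting IP replicate 1 the log2 fold change was -0.61 (edgeR adjusted p = 0.014), and without resting IP replicate 2 it was -1.66. Mir29c was at 1338 and 1177 CPM in the proliferating IPs, against 5545 and 2927 CPM in the resting IPs (log2 fold change -1.75, SE 0.28, edgeR adjusted p = 1.5e-06). It was at -1.31 without resting IP replicate 1. By log2 fold change Mir29c ranked 9th lowest and Mir29a 19th lowest among the 54 features with a mean of at least 1000 CPM.

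Mir29b-2 averaged 4.85 ± 2.73 CPM in the proliferating IPs and 18.5 ± 3.42 CPM in the resting IPs (SD, n = 2 each). Its log2 fold change was -1.83 (95% interval -3.85 to 0.19, edgeR adjusted p = 0.12), and with upper-quartile factors it passed, at -2.52 (edgeR adjusted p = 0.033). Mir29b-1 was at 0.22 (95% interval -1.38 to 1.82, edgeR adjusted p = 0.84). Thus 2 of 4 members fell, where 23.7% of all tested features were called lower in the proliferating IP. Calls over all features were 62 higher and 52 lower, while upper-quartile factors gave 38 higher and 75 lower.

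**Figure D3:**
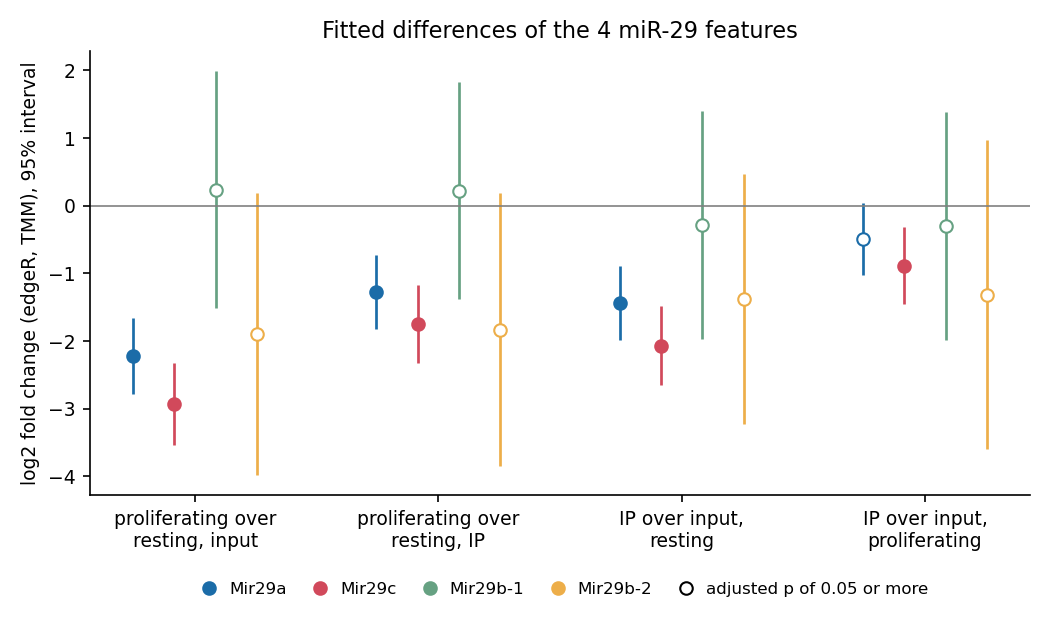
Log2 fold change of each miR-29 feature with its 95% interval (edgeR, TMM factors) in the 4 comparisons of 2 groups. Filled points have an adjusted p under 0.05. Mir29a and Mir29c are below 0 in all 4, and the intervals of both miR-29b features reach across 0 in all 4.

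Setting the IP against the input shows whether a miRNA takes a larger or a smaller part of the AGO2-bound RNA than of total small RNA. AGO2 is 1 of several Argonaute proteins, and the input also holds miRNAs bound to the others. In resting cells Mir29a and Mir29c took a smaller part of the IP. Mir29a was at 37698 and 15907 CPM in the resting IPs, against 79803 and 65168 CPM in the resting inputs, a 2.704-fold difference (log2 fold change -1.44, edgeR adjusted p = 3.9e-05, SE 0.27). Without resting IP replicate 1 the log2 fold change was -2.26, and without resting IP replicate 2 it was -1.21 (edgeR adjusted p between 1e-16 and 0.0034 over the 8 fits that left out 1 library). Mir29c was at 5545 and 2927 CPM in the resting IPs, against 19570 and 15909 CPM in the resting inputs, a 4.19-fold difference (log2 fold change -2.07, SE 0.29, edgeR adjusted p = 3.9e-07). Both were below the inputs in both IP libraries. Among the 54 features with a mean of at least 1000 CPM, Mir29c had the 4th lowest and Mir29a the 5th lowest log2 fold change.

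Neither miR-29b feature passed in resting cells. Mir29b-2 was at -1.38 (95% interval -3.22 to 0.47, edgeR adjusted p = 0.26) and Mir29b-1 at -0.28 (95% interval -1.96 to 1.40, edgeR adjusted p = 0.84). The 2 of 4 members that fell stand beside 15.5% of all tested features called lower in the resting IP. Over all features 29 were higher and 34 lower, while upper-quartile factors gave 33 higher and 23 lower. The other-lineage marker shares of the resting IPs, 1.69% to 3.18%, overlapped those of the resting inputs, 1.31% to 3.02%, but this sum was mostly Mir223. The epithelial markers were higher in the resting IPs, at 0.197% to 0.209%, than in the resting inputs, at 0.109% to 0.129%. The stromal markers and Mir122 were also higher in the resting IPs, and Mir126a was lower, each without overlap. The part of these markers in the difference was not tested.

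In proliferating cells Mir29c was lower in the IP than in the input, and the other members did not pass. Mir29c was at 1338 and 1177 CPM in the proliferating IPs, against 2396 and 2255 CPM in the proliferating inputs, a 1.85-fold difference (log2 fold change -0.89, edgeR adjusted p = 0.015, SE 0.28). The groups did not overlap, but the call was lost without proliferating IP replicate 2 (-0.80, edgeR adjusted p = 0.13), proliferating input replicate 1 (-0.84, edgeR adjusted p = 0.14) or proliferating input replicate 2 (-0.93, edgeR adjusted p = 0.097). Mir29a was at 10714 and 11455 CPM in the proliferating IPs, against 15462 and 15719 CPM in the proliferating inputs. Its groups did not overlap either, but the log2 fold change of -0.49 (95% interval -1.03 to 0.04, edgeR adjusted p = 0.19) did not pass. It passed when resting IP replicate 1 or 2 was left out (-0.45 in both fits, edgeR adjusted p = 0.045 and 0.041), with no filter on low counts (-0.60, edgeR adjusted p = 0.04) and with only the 4 proliferating libraries (-0.55, edgeR adjusted p = 0.012). With library totals Mir29a was at -1.10 (edgeR adjusted p = 0.0083), while the median of all tested features moved to -0.50 from 0.11 with TMM factors. By log2 fold change with TMM factors Mir29c ranked 7th lowest and Mir29a 10th lowest among the 54 features with a mean of at least 1000 CPM.

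The miR-29b features had log2 fold changes of -1.31 for Mir29b-2 (95% interval -3.60 to 0.97, edgeR adjusted p = 0.44) and -0.30 for Mir29b-1 (95% interval -1.98 to 1.38, edgeR adjusted p = 0.81). Thus 1 of 4 members fell, where 13.7% of all tested features were called lower in the proliferating IP than in the input. Over all features 29 were higher and 30 lower, and 16 higher and 60 lower with library totals. The other-lineage marker shares of the proliferating IPs, 0.200% to 0.330%, lay below those of the proliferating inputs, 0.354% to 0.506%, and their part in the difference was not tested.

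Whether the IP to input difference itself differed between the states was tested as an interaction. For Mir29c the log2 fold change of IP over input was -0.89 in proliferating and -2.07 in resting cells, and the difference of 1.18 passed (SE 0.39, 95% interval 0.38 to 1.97, edgeR adjusted p = 0.032). For Mir29a it was -0.49 in proliferating and -1.44 in resting cells, and the difference of 0.94 did not pass (SE 0.38, 95% interval 0.18 to 1.70, edgeR adjusted p = 0.076). With the 4 features summed the difference was 1.02 (edgeR adjusted p = 0.034). The miR-29b features were at 0.07 for Mir29b-2 and -0.02 for Mir29b-1, both with an edgeR adjusted p of 0.99, and their few counts leave wide intervals. So 1 of 4 members passed, where 9.59% of all tested features were called higher. The call for Mir29c was lost with library totals (0.84, edgeR adjusted p = 0.12) and with upper-quartile factors (0.89, edgeR adjusted p = 0.16), which both moved the calls over all features from 21 higher and 17 lower to 7 higher and 20 or 15 lower. RLE size factors (1.14, edgeR adjusted p = 0.051) and no filter on low counts (0.99, edgeR adjusted p = 0.058) ended it too. The call was also lost without proliferating IP replicate 1 (0.88) or 2 (1.27), without proliferating input replicate 1 (1.22) or 2 (1.14), and without resting input replicate 1 (1.02). The edgeR adjusted p ranged from 6.1e-06 to 0.18 over the 8 fits that left out 1 library, and the value was 1.83 without resting IP replicate 1. For Mir29a the difference passed without resting IP replicate 1 (1.81, edgeR adjusted p = 8.1e-08) and without resting IP replicate 2 (0.76, edgeR adjusted p = 0.04).

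**Figure D4:**
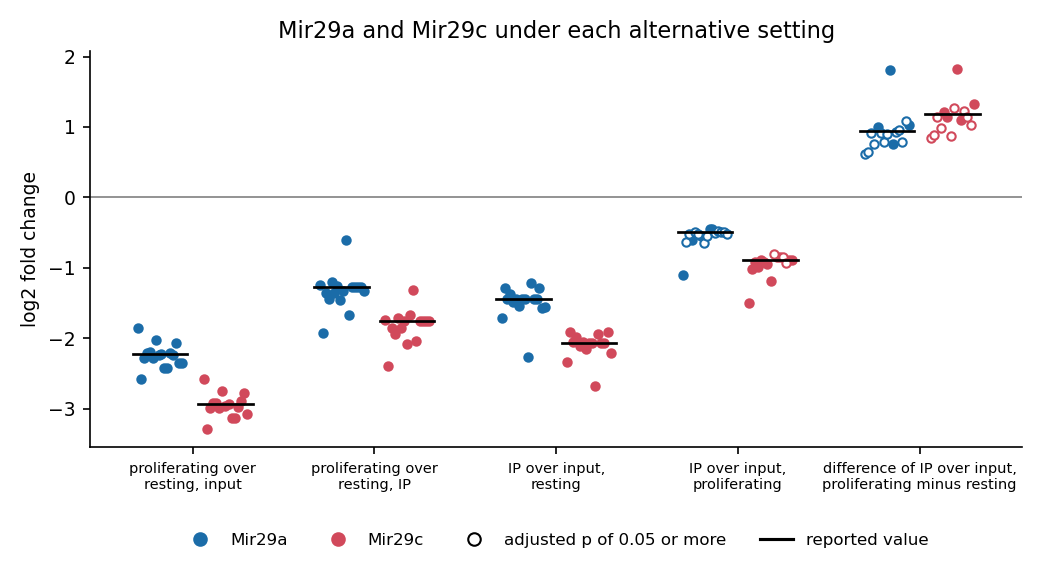
Log2 fold change of Mir29a and Mir29c in each comparison under the alternative scalings, filters, tests and left-out libraries (points) beside the reported value (bar). Points of all settings stay below 0 in the 4 comparisons of 2 groups and above 0 in the difference of IP over input, and open points have an adjusted p of 0.05 or more.

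miR-150 and the miR-26 and miR-30 families are, like miR-29, known to be abundant in resting lymphocytes. Of 10 listed genes of these families 9 were named by coordinates and 7 were tested. In the input 6 of 7 were lower in proliferating cells and 1 did not pass, where 23.3% of all tested features were called lower. Their median log2 fold change was -1.18 against 0.04 over all tested features. In the IP 6 of 7 were lower as well and Mir30c-1, at 0.29, did not pass, where 23.7% of all tested features were called lower. The medians there were -2.19 for the list and 0.21 for all tested features. Mir150, which is known to restrain the transcription factor Myb, was at -3.54 in the input and -2.77 in the IP. Mir26b was at -0.54 and -2.19, and Mir30d at -1.64 and -2.26. For Mir29a (-2.22 and -1.27) and Mir29c (-2.93 and -1.75) the value in the IP was nearer 0 than in the input, as for Mir150, while for Mir26b and Mir30d it was farther from 0.

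Between IP and input the list split. In resting cells 3 of 7 were higher in the IP (Mir26b at 1.81, Mir26a-2 at 1.84 and Mir30b at 1.60), 3 were lower (Mir150 at -0.66, Mir30a at -1.04 and Mir30c-1 at -3.03) and Mir30d, at -0.46, did not pass. Over all tested features 13.2% were called higher in the resting IP and 15.5% lower. Mir29a (-1.44) and Mir29c (-2.07) were thus on the side of Mir150, Mir30a and Mir30c-1. In proliferating cells 1 of 7 was higher, Mir30b at 1.19, and 2 were lower, Mir30c-1 at -1.85 and Mir30d at -1.08, where 13.2% of all tested features were called higher in the proliferating IP and 13.7% lower. The difference of IP over input between the states was -1.65 for Mir26b (edgeR adjusted p = 2.8e-04) and -2.61 for Mir26a-2 (edgeR adjusted p = 0.0031), and the other 5 did not pass. These 2 of 7 called lower stand beside 7.76% of all tested features. Among the 5, Mir30c-1 was at 1.18, Mir150 at 0.77 and Mir30a at 0.36, the same sign as the 1.18 of Mir29c. Mir30b, at -0.41, and Mir30d, at -0.62, had the opposite sign, as did Mir26b and Mir26a-2. Mir26a-2 shares its main mature miRNA with Mir26a-1 and the same is true of the miR-30c genes, so their counts carry the same doubt as those of miR-29b.

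**Figure D5:**
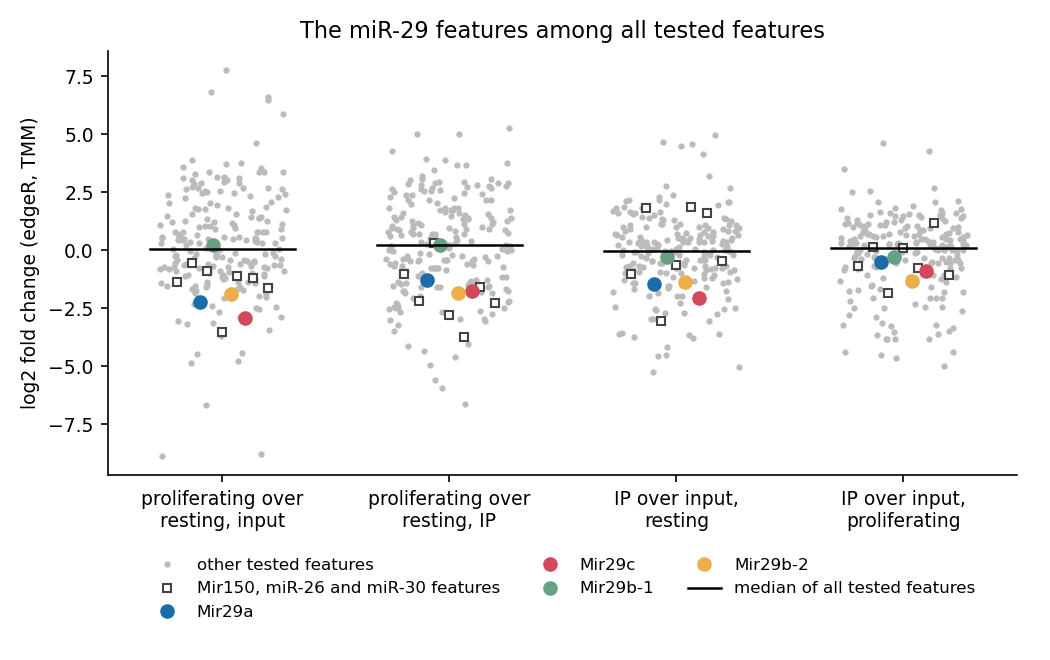
Log2 fold change (edgeR, TMM factors) of all 219 tested features in the 4 comparisons of 2 groups, with the miR-29 features coloured, the 7 tested Mir150, miR-26 and miR-30 features as open squares and the median of all features as a line. Mir29a and Mir29c lie below the median in each comparison. The open squares lie below it in proliferating over resting input and on both sides of it in the comparisons of IP with input. In proliferating over resting IP, Mir30c-1, at 0.29, lies above the median of 0.21 and the other squares below it.

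The features whose log2 CPM over the 8 libraries was most like that of Mir29a, outside the family, were Mir574 (r = 0.936), Mir1843b (r = 0.934), Mir30a (r = 0.929), Mir322 (r = 0.910) and Mir326 (r = 0.907). The closest to Mir29c were Mir1843b (r = 0.967), Mir574 (r = 0.966) and Mir30a (r = 0.965). Mir30a, a member of the miR-30 family, had means of 162 CPM in the proliferating IPs, 328 in the resting IPs, 257 in the proliferating inputs and 674 in the resting inputs. Mir574 had 143, 214, 181 and 575 CPM in the same groups. Both share with Mir29c the order of the 4 group means from the resting input down to the proliferating IP. The closest to Mir29b-2 were Mir30d (r = 0.882), Mir1843b (r = 0.864) and Mir322 (r = 0.862). For Mir29b-1 the highest was Mir210 at r = 0.713, and its few counts limit any likeness. All of these are descriptions over 8 libraries in 4 groups, in which any feature that differs between the groups in this order gives a high r.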

How the data were processed

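The authors deposited raw counts for 2202 miRNA features in 1 table for each cell state, so a difference between states is also one between tables. Per the file headers, columns are named for deduplicated alignments. STAR 2.7.9a, SAMtools 1.15 and mm10 are named in the submitters' processing notes, and the QIAseq miRNA kit is the library kit per the labels' protocols. The counter, its strand setting, its treatment of reads with several positions and the deduplication method were not stated by the labels or headers. Each feature covers both arms of its hairpin, so arms cannot be separated.

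Features were named by exact match of coordinates to RefSeq genes of GRCm38.p6, which named 1179. With edgeR 4.0.16 (R 4.3.3), 4 group means were fitted to all 8 libraries by quasi-likelihood (TMM factors, filterByExpr with a minimum count of 10, 219 features), and Benjamini-Hochberg adjustment ran over all of them, with a threshold of 0.05. SE is the absolute log2 fold change over the square root of F. Most of the estimated spread is shared over features (36.6 prior and 4 residual degrees of freedom). Shares are percent of all counts of a library with exact (Clopper-Pearson) 95% intervals, which cover counting error only. No group held a library deposited in duplicate: chi-square over degrees of freedom was at least 8.56. Likeness is Pearson's r of log2 CPM (prior count 2), for the 5 features most like Mir29a and the 3 most like each other member. Of the resting lymphocyte list, the values between cell states are given for Mir150 and the most abundant miR-26 and miR-30 features. Mir30c-1 is added in the IP, and other list members that passed are only counted. For IP against input and its difference between states, members that passed are given, with some that did not. Alternatives were 3 other scalings, DESeq2 1.42.0, no filter, summed members, 4 libraries alone, a replicate block and leaving out each library. The script was tested on simulated data. The members and lists were chosen with earlier results of these data known.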

Additional observations from a re-analysis of the deposited data

Results flagged for a closer look

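For Mir29c the difference between IP and input was not the same in the cell states: the log2 fold change was -0.89 in proliferating and -2.07 in resting cells, a difference of 1.18 (edgeR interaction, adjusted p = 0.032). The edgeR or DESeq2 adjusted p of this difference ranged from 6.1e-06 to 0.18 over 14 alternatives, 9 of which gave an adjusted p of 0.05 or more.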

How the results depend on the processing

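Over the alternatives run, Mir29a and Mir29c were lower in proliferating than in resting cells in input and IP, and lower in the resting IP than in input, with an adjusted p under 0.05 in each. Log2 fold changes ranged from -2.57 to -1.86 (Mir29a) and -3.29 to -2.57 (Mir29c) in the input, from -1.92 to -0.61 and -2.39 to -1.31 in the IP, and from -2.26 to -1.21 and -2.67 to -1.91 for IP over input in resting cells. For IP over input in proliferating cells Mir29a passed with library totals (-1.10), with no filter (-0.60) and with only the 4 libraries (-0.55), where 2 members passed in each. Leaving out 1 library gave -0.65 to -0.45 for Mir29a, -1.18 to -0.80 for Mir29c and 0 to 2 members. For the difference between states, Mir29c did not pass with library totals (0.84), upper-quartile factors (0.89), RLE size factors (1.14) or no filter (0.99), each with 0 members, and leaving out 1 library gave 0.88 to 1.83 for Mir29c, 0.76 to 1.81 for Mir29a and 0 to 2 members. The 4 members summed into 1 feature passed there (1.02), where Mir29a alone did not. The cause of these changes was not tested.

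The replicate block also brought Mir29a past the threshold for that difference (1.002, edgeR adjusted p = 0.033, 2 members). It changed no other call of Mir29a or Mir29c. Same-numbered libraries did not deviate together (r from -0.123 to 0.177 between groups), and the labels do not say that the numbers pair them.

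Uncalled miR-29b values changed sign. For Mir29b-1 this was so with upper-quartile factors, at -0.14 (input) and -0.42 (IP), and for the difference with the block (0.031). Leaving out 1 library gave -0.16 to 0.53 (input), -0.26 to 0.45 (IP), -0.73 to 0.092 (IP over input, proliferating) and -0.45 to 0.37 (difference). For Mir29b-2 the difference was -0.29 with library totals, -0.28 with upper-quartile factors, -0.040 with RLE, -0.16 with no filter and -0.10 with DESeq2, and -0.69 to 1.24 without 1 library. The summed share of the proliferating input was 2.44% over named features. Depth limits Mir29b-1 and Mir29b-2 most, at 2 to 33 counts a library.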
